A study of Danio rerio with 36 samples.

Results

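Whole wild-type zebrafish larvae of 5 day and 9 day were compared by RNA sequencing, over the days in which a larva goes from living on yolk to living on food. The comparison holds every gene that passed a filter on low counts in the 6 libraries, which was 22342 of the 30490 genes in the deposited table. Both groups carry the wildtype genotype, were 5 and 9 days old, and had 3 biological replicates each. They are the controls of a series on kctd15, a gene for a BTB-domain protein, that sampled wild type and kctd15 mutants at 6 stages from 1 somite to 14 day in 36 libraries. Per the labels, larvae were fed and kept by the standard procedure of the animal facility. The strain, the age at first food, the time of day of sampling, the number of animals in a library, and the paralog and allele of the mutants are not given in the sources used here. Nothing in the labels says whether replicates came from separate clutches, so a p-value measures only the spread between these libraries.

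A zebrafish larva first draws its lipid and amino acids from the yolk, whose lipoproteins are exported by the yolk syncytial layer that surrounds it. When the yolk runs out, the liver and muscle of an unfed larva turn to the fasting programme, in which FoxO transcription factors, low insulin signalling and glucocorticoids raise gluconeogenesis and protein breakdown. Food then supplies amino acids and sugar, insulin signalling damps that programme, and the sterol-sensing factor SREBP raises cholesterol and lipid synthesis where sterol is scarce. Over the same days microbes settle in the gut, the thymus begins to fill with T cells, and definitive red blood cells replace the primitive ones.

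Library totals were 6165297 to 8033360 estimated counts at 5 day and 9428930 to 10194969 at 9 day, so the older group was the deeper one. Replicates correlated at 0.974 to 0.984 on log2 CPM across genes, and no pair of libraries agreed within sampling noise. The labels give no batch or date, so a batch that coincides with age cannot be told apart from it. Levels below are CPM, which is counts relative to the library total, scaled by TMM factors over the 6 libraries, and errors after them are SDs of 3 libraries. Changes are log2 fold changes from 5 day to 9 day with their standard errors. A gene is called when edgeR's quasi-likelihood test gives a Benjamini-Hochberg adjusted p under 0.05 over all genes tested. Markers of liver, exocrine pancreas, intestine, fast muscle, neurons, epidermis, retina, lens, myelin, red cells, neutrophils and macrophages had counts in all 6 libraries. The germ cell marker nanos3 had none at 9 day, and the germ cell marker ddx4 lay between 0.996 and 2.60 CPM by library total. The planned markers prss1 of exocrine pancreas and hbae1.1 of red cells were not listed under those symbols. Pancreas was read from ela2l and red cells from cahz.

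Genes of every tissue examined were called in the step from 5 to 9 day. Of the 22342 genes tested 11019 were called (49.3%), 5673 of them higher (25.4%) and 5346 lower (23.9%). By 2-fold or more 2050 rose and 2326 fell, and by 4-fold or more 354 rose and 246 fell. The groups did not overlap for 58.4% of the genes tested. The median change over all genes was -0.0034, and with library size as the only scaling it was -0.13, which turned the split of calls into 4439 higher and 6583 lower. Because so many genes were called, the share of a gene list is read below against 25.4% higher and 23.9% lower. Each list is described by its counts and by its median change. Where a list below had no call in one direction, edgeR gave 0 genes in that direction at an unadjusted p under 0.05 as well, save 1 in the glucocorticoid list, and DESeq2 called 0.

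**Figure D1:**
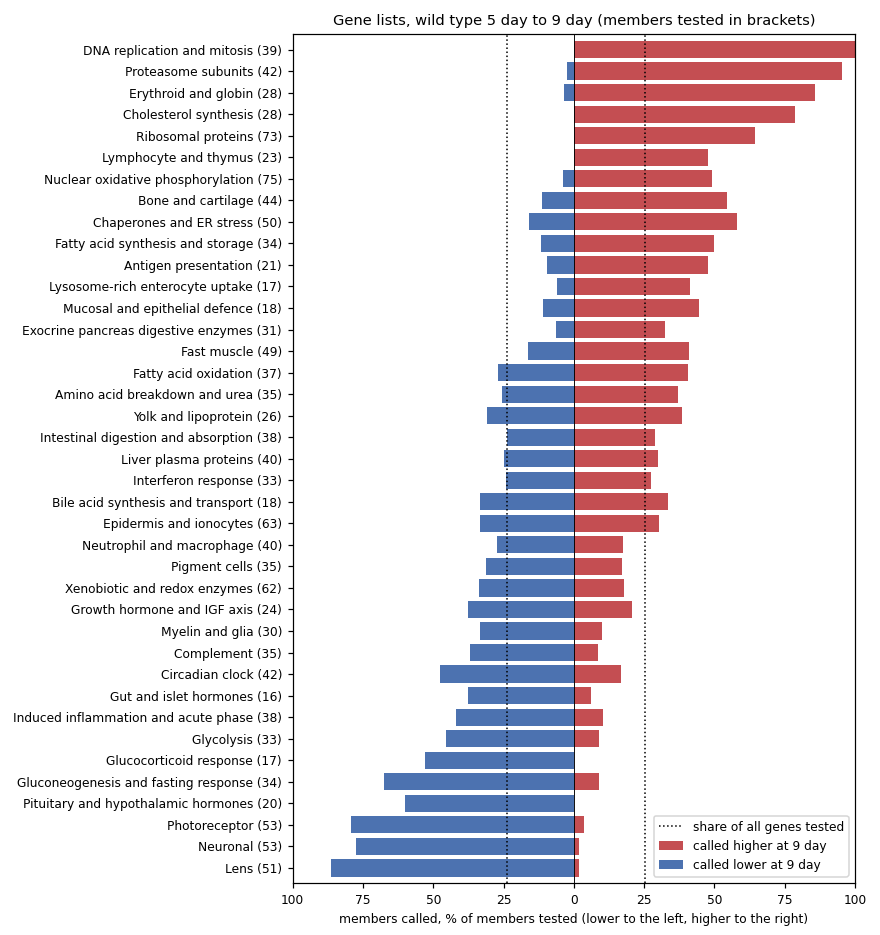
Share of the tested members of 39 gene lists called higher (red, to the right) or lower (blue, to the left) at 9 day than at 5 day in wild type, with the number of members tested in brackets. Dotted lines mark the shares over all genes tested, 25.4% and 23.9%. DNA replication, proteasome, erythroid and cholesterol synthesis genes lie far to the right, and lens, neuronal, photoreceptor and fasting genes far to the left.

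Genes of cholesterol synthesis rose together and had the largest median of the 39 lists. Of 28 tested, 22 rose and none fell, with a median of 2.16. The gene hmgcs1, for the synthase that makes HMG-CoA, stood at 34.5, 23.5 and 42.9 CPM in the 5 day libraries and at 384, 610 and 588 CPM at 9 day. Every 9 day library was many times above every 5 day library, and the change was 3.98 ± 0.24 (edgeR adjusted p = 3.17e-06). The gene for the rate-limiting enzyme, hmgcra, read 45.6, 27.5 and 38.9 CPM at 5 day and 248, 310.4 and 359.7 CPM at 9 day, a rise of 3.04 ± 0.20. The squalene epoxidase gene sqlea went from 5.5 ± 2.6 to 121 ± 31 CPM (4.47 ± 0.29). Among other genes of the pathway, the sterol oxidase gene msmo1 rose by 3.18 ± 0.17, the sterol isomerase gene ebp by 2.63 ± 0.19 and the isopentenyl isomerase gene idi1 by 2.22 ± 0.12. Scaled over all 36 libraries, the mean of hmgcs1 lay between 28.1 and 37.6 CPM at the wild-type stages up to 5 day, was 462 CPM at 9 day and 191 CPM at 14 day.

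Of 34 genes of fatty acid synthesis and storage 17 rose and 4 fell, with a median of 0.32. The desaturase gene fads2, whose product acts in the making of polyunsaturated fatty acids, read 36.1, 14.3 and 27 CPM at 5 day and 396, 479 and 538 CPM at 9 day (4.20 ± 0.28, edgeR adjusted p = 4.01e-06). The elongase genes elovl2 and elovl5, whose products lengthen the same fatty acids, rose by 2.74 ± 0.13 and 1.23 ± 0.14. The fatty acid synthase gene fasn changed less, from 67.2 ± 16 to 112 ± 7.9 CPM (0.73 ± 0.15). The triacylglycerol synthesis gene dgat2 went the other way and fell by 2.08 ± 0.14, as did acacb, for the acetyl-CoA carboxylase of the mitochondrial surface, by 0.90 ± 0.11 on the log2 scale.

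Genes of the fasting response fell. Of 34 genes of gluconeogenesis and the fasting response 23 fell (67.6%) and 3 rose, with a median of -0.72. The gene pck1, for the enzyme that commits to gluconeogenesis, read 530.3, 738 and 528 CPM at 5 day and 209, 248 and 141 CPM at 9 day (-1.59 ± 0.20, edgeR adjusted p = 0.000132). All 5 day libraries were above all 9 day libraries. The lipid phosphatase gene lpin1 went from 147 ± 46 to 23.5 ± 1.1 CPM (-2.65 ± 0.20). The insulin receptor substrate genes irs2a and irs2b, which FoxO raises when insulin is low, changed by -2.21 ± 0.17 and -1.57 ± 0.14, and the FoxO gene foxo1a itself by -1.49 ± 0.17. Genes for the growth-factor binding proteins igfbp1a and igfbp1b, known to rise on fasting, changed by -1.08 ± 0.17 and -2.70 ± 0.40. The pyruvate dehydrogenase kinase gene pdk4 went from 54.5 ± 6.4 to 19.9 ± 0.92 CPM (-1.46 ± 0.13), and the stress-response gene sesn1 from 254 ± 32 to 86.6 ± 9.5 CPM (-1.55 ± 0.13).

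**Figure D2:**
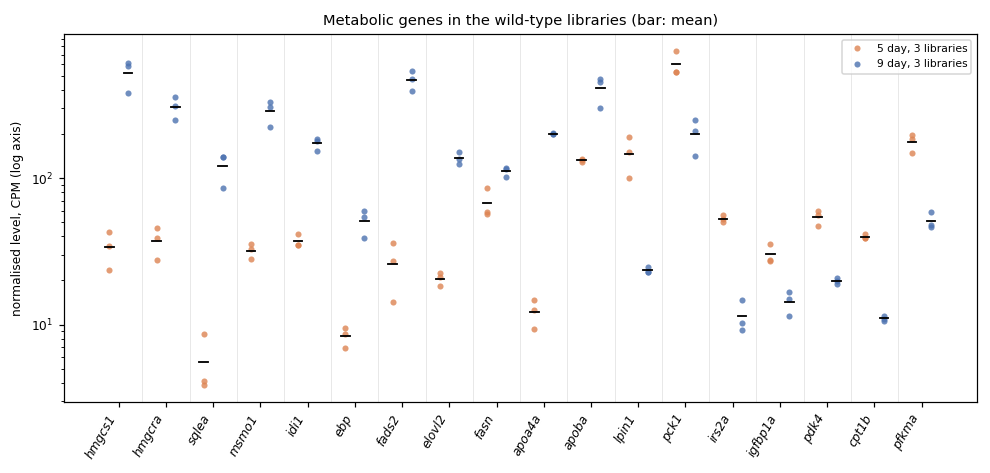
Normalised level in CPM (log axis) of 18 metabolic genes in the 3 wild-type libraries of 5 day (orange) and the 3 of 9 day (blue), with a bar at each mean. The groups do not overlap for any of the genes drawn: cholesterol and lipid genes such as hmgcs1 (33.6 to 527 CPM) were higher at 9 day, and fasting genes such as lpin1 (147 to 23.5 CPM) lower. The genes drawn were picked from the named genes, which were chosen largely for being called. The lipid genes dgat2 and acacb, which fell, are not drawn.

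Genes that respond to glucocorticoids, the stress hormones that also act in fasting, fell or did not pass. Of 17 tested, 9 fell and none rose, with a median of -0.54, and pck1 counts in this list and the last. The transcription factor gene klf9 read 45.3, 67.0 and 22.1 CPM at 5 day and 9.89, 9.62 and 7.25 CPM at 9 day (-2.33 ± 0.33, edgeR adjusted p = 0.000261). The Hsp90 cochaperone gene fkbp5 went from 166 ± 77 to 47.8 ± 15 CPM (-1.79 ± 0.31), with the 5 day libraries spread from 104 to 252 CPM. The CRH-binding protein gene crhbp fell by 1.33 ± 0.15 on the log2 scale. Hormone genes fell as well: of 20 genes of the pituitary and hypothalamus 12 fell and none rose (median -0.96). Neuronal genes, described below, had a similar median of -1.02. Whether the hormone genes fell beyond other neural RNA was not tested. The growth hormone gene gh1 went from 17.0 ± 2.9 to 7.70 ± 0.92 CPM (-1.15 ± 0.18), and the thyrotropin-releasing hormone gene trh from 6.55 ± 1.7 to 1.97 ± 0.33 CPM (-1.72 ± 0.28). The somatolactin gene smtlb had 57 counts over the 5 day libraries and 1 over the 9 day libraries, a ratio of 74.5 (95% counting interval 12.8 to 2991, counting error only). The insulin-like growth factor gene igf1 was low at both ages and did not pass (2.18 and 2.68 CPM, edgeR adjusted p = 0.476).

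Glycolysis genes fell more often than they rose. Of 33 glycolysis genes 15 fell and 3 rose (median -0.29), such as the muscle phosphofructokinase gene pfkma (177 ± 26 to 51.0 ± 7.1 CPM, -1.79 ± 0.14) and the pyruvate kinase gene pkmb (-1.28 ± 0.11). Of 37 genes of fatty acid oxidation 15 rose and 10 fell (median 0.14), a count that fell to 9 and 7 without 5 day replicate 2. Of the entry step, cpt1b, for the carnitine transferase of muscle, changed from 39.8 ± 1.6 to 11.0 ± 0.42 CPM (-1.85 ± 0.12) and cpt1ab by -0.87 ± 0.11. The matrix and peroxisome enzyme genes hadh, ehhadh and acaa1 rose, by 0.77 ± 0.11, 0.83 ± 0.12 and 0.91 ± 0.13. Of 35 genes of amino acid breakdown 13 rose and 9 fell, among them the glycine decarboxylase gene gldc (178 ± 34 to 39.9 ± 0.89 CPM, -2.16 ± 0.14), the tryptophan dioxygenase gene tdo2a (1.33 ± 0.10) and haao of the same pathway (1.55 ± 0.17).

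Yolk protein and lipoprotein genes split. The vitellogenin genes, which encode the yolk protein that the mother's liver makes, were below the count filter, with 14.4 estimated counts for vtg1 over all 6 libraries. Among 26 genes of lipoproteins and their handling 10 rose and 8 fell (median -0.05). The gene apoa4a, for an apolipoprotein of lipid-absorbing gut, read 14.6, 12.6 and 9.30 CPM at 5 day and 204, 199 and 202 CPM at 9 day (4.05 ± 0.15, edgeR adjusted p = 2.32e-07), with no overlap. The gene apoba, for the protein that frames each large lipoprotein particle, went from 133 ± 3.2 to 410.1 ± 95 CPM (1.63 ± 0.16), and apoea from 397 ± 81 to 1179 ± 69 CPM (1.57 ± 0.15). The hepatic lipase gene lipca rose from 0.932 ± 0.11 to 12.6 ± 1.9 CPM (3.75 ± 0.25). The gene apoda.2 fell from 952 ± 43 to 338 ± 19 CPM (-1.49 ± 0.11).

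The digestive tract also split by gene. Of 31 genes of pancreatic digestive enzymes 10 rose and 2 fell (median 0.17). The trypsin-type gene prss59.1 went from 2263 ± 211 to 3524 ± 739 CPM (0.64 ± 0.15), the elastase gene ela3l from 917 ± 134 to 1414 ± 194 CPM (0.62 ± 0.14), and the lipid-cleaving phospholipase gene pla2g1b rose by 1.14 ± 0.20. The amylase gene amy2a, for starch digestion, fell from 929.5 ± 109.9 to 372 ± 47 CPM (-1.32 ± 0.13). In bulk tissue, fewer cells of a type and less RNA per cell cannot be told apart, here and in every tissue above and below.

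Among 38 intestinal genes 11 were higher and 9 lower at 9 day, shares close to those of all genes. The brush border phosphatase gene alpi.2 rose from 44.3 ± 3.7 to 156 ± 24 CPM (1.82 ± 0.13). Chitinase genes went both ways: chia.2 fell from 1591 ± 82 to 688 ± 134 CPM (-1.21 ± 0.14), chia.3 rose by 2.04 ± 0.23, and chia.5 rose from 4 counts over the 5 day libraries to 161 over the 9 day libraries. The fatty acid binding genes fabp2 and fabp1b.1 changed by -0.72 ± 0.11 and -0.99 ± 0.11. Of 17 genes of the lysosome-rich enterocytes, the cells of the mid-gut that take up whole protein, 7 rose and 1 fell (median 0.36), led by the cathepsin gene ctsbb (1.81 ± 0.13). Among 18 bile acid genes 6 rose and 6 fell. The rate-limiting enzyme gene cyp7a1 rose by 0.82 ± 0.20 and the export pump gene abcb11b by 1.31 ± 0.16, whereas cyp27a7 changed by -1.19 ± 0.12. The ileal bile acid transporter gene slc10a2 rose by 1.05 ± 0.14. Among 16 gut and islet hormone genes 6 fell, such as the somatostatin gene sst2 (9.21 ± 1.3 to 2.43 ± 0.38 CPM, -1.92 ± 0.23) and pyya (-1.23 ± 0.24), and the one that rose was the glucagon gene gcga (0.75 ± 0.19).

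Among 40 genes of liver plasma proteins 12 rose and 10 fell (median 0.14), shares of 30% and 25% that are close to those of all genes. The haem scavenger gene hpx read 37.3, 57.5 and 29.4 CPM at 5 day and 402, 536 and 349 CPM at 9 day (3.36 ± 0.24, edgeR adjusted p = 6.45e-06). The fetuin-type gene ahsg2 rose from 16.1 ± 5.6 to 242 ± 26 CPM (3.90 ± 0.21) and the transferrin gene tfa, the iron carrier of plasma, from 1524 ± 126 to 3846 ± 303 CPM (1.34 ± 0.12). The retinol carrier gene rbp4 fell from 1453 ± 122 to 582 ± 127 CPM (-1.32 ± 0.16) and the vitamin D carrier gene gc from 183 ± 23 to 69.4 ± 11 CPM (-1.40 ± 0.14). The vitamin D hydroxylase gene cyp24a1 went from 21.6, 104 and 28.4 CPM to 3.12, 2.05 and 1.19 CPM (-4.61 ± 0.64), and the epithelial calcium channel gene trpv6, a vitamin D target in mammals, from 71.0 ± 7.8 to 12 ± 2.8 CPM (-2.57 ± 0.17). Of 62 genes of xenobiotic and redox enzymes 21 fell and 11 rose (median -0.17). Outside the lists, the P450 gene cyp2aa8 had 519 counts at 5 day and 0 at 9 day, at least 226-fold lower against a floor of 3 counts over the group.

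Genes of cell division and of the proteasome rose, and chaperone genes rose more often than they fell. All 39 genes of DNA replication and mitosis tested rose, with a median of 1.45. The replication clamp gene pcna read 151, 127 and 151 CPM at 5 day and 455, 448 and 462 CPM at 9 day (1.67 ± 0.11, edgeR adjusted p = 3.92e-06). The replicative helicase genes mcm5 and mcm3 rose by 1.87 ± 0.12 and 1.86 ± 0.13, and the thymidylate synthase gene tyms by 1.86 ± 0.16. Of 42 proteasome subunit genes 40 rose (median 0.90), with psmd7 of the lid going from 46.7 ± 3.2 to 109.7 ± 2.0 CPM (1.23 ± 0.10). Of 50 chaperone and ER stress genes 29 rose and 8 fell (median 0.56). Among those that rose were the ER chaperone gene hspa5 (169 ± 20 to 498 ± 65 CPM, 1.56 ± 0.13), pdia4 (1.75 ± 0.13), hyou1 (1.68 ± 0.14) and manf (2.27 ± 0.14). Among those that fell were the chaperone genes hspa8 and hsp90ab1, by 0.39 ± 0.11 and 0.32 ± 0.10 on the log2 scale. The list was not divided by cell compartment. The call of hspa8 was lost without 5 day replicate 1 or 9 day replicate 2 (edgeR adjusted p = 0.0534 and 0.051). That of hsp90ab1 was lost without 5 day replicate 1 or 3 or 9 day replicate 2 (edgeR adjusted p = 0.0809, 0.077 and 0.0585).

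Ribosomal protein genes rose by little, in 47 of 73 cases with none lower and a median of 0.36, and the count depended on scaling and on single libraries. It was 17 with library size as the only scaling and 19, 18 and 19 without 5 day replicate 1, 2 or 3. Of 75 nuclear genes of oxidative phosphorylation 37 rose and 3 fell (median 0.28). That count was 16 and 5 with library size only, 22 and 3 without 5 day replicate 1, and 21 and 3 without 5 day replicate 2. The complex IV genes cox4i2 and cox5b2, for forms of different subunits, changed by -0.88 ± 0.13 and 1.85 ± 0.20, and the ATP synthase gene atp5g1 went from 251 ± 9.7 to 470.1 ± 19 CPM (0.90 ± 0.10).

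Red blood cell genes rose. Of 28 tested, 24 rose and 1 fell, with a median of 1.56. The gene hbz, named for a zeta-type globin, had 1.08, 0.587 and 2.1 CPM at 5 day and 873, 661 and 585 CPM at 9 day (9.18 ± 0.30, edgeR adjusted p = 2.32e-07), the largest rise among the genes that the naming rule picked. Scaled over all 36 libraries its mean was at most 2.02 CPM at each wild-type stage up to 5 day and 626 CPM at 14 day. The globin gene hbbe2 went from 74.8 ± 25 to 1548 ± 289.6 CPM (4.38 ± 0.26). Near-identical globin genes can share reads, so their estimated counts are uncertain for single copies. Among genes of haem synthesis, alas2, for the erythroid first enzyme, went from 27.9 ± 8.4 to 194 ± 37 CPM (2.81 ± 0.22) and cpox rose by 1.62 ± 0.14. The red cell carbonic anhydrase gene cahz rose by 1.93 ± 0.17.

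Muscle and skeletal genes rose in part. The actin gene acta1b of skeletal muscle read 334, 371 and 411 CPM at 5 day and 4638, 4622 and 4311 CPM at 9 day (3.60 ± 0.13, edgeR adjusted p = 2.32e-07). Scaled over all 36 libraries its wild-type mean was 3000 CPM at 2 day, 335 CPM at 5 day and 3098 CPM at 14 day. By these estimated counts 5 day was a low point between stages of high level. Its paralog acta1a rose by 1.37 ± 0.10, and how reads were divided between these copies was not tested. Of 49 fast muscle genes 20 rose and 8 fell (median 0.21), including the myosin light chain gene mylpfa (6443 ± 276 to 10930 ± 929 CPM, 0.76 ± 0.12) and the parvalbumin gene pvalb3 (1.51 ± 0.16). The AMP deaminase gene ampd1 fell from 805 ± 18 to 249 ± 14 CPM (-1.69 ± 0.10). Of 44 genes of bone and cartilage 24 rose and 5 fell (median 0.53). The collagen gene col10a1a, of bone-forming and hypertrophic cells, went from 422 ± 33 to 983 ± 100.3 CPM (1.22 ± 0.12) and the mineralization gene entpd5a rose by 1.74 ± 0.20, whereas the matrilin gene matn3a fell from 62.4 ± 19 to 11.2 ± 1.9 CPM (-2.48 ± 0.22).

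Neural, retinal and lens genes made up a smaller share of RNA at 9 day. Of 53 neuronal genes 41 fell and 1 rose (median -1.02). The NMDA receptor genes grin1b and grin1a changed by -1.47 ± 0.11 and -1.34 ± 0.11, and the GABA transporter gene slc6a1a by -1.50 ± 0.15. Of 53 photoreceptor genes 42 fell and 2 rose (median -1.18), with the cone recoverin gene rcvrn3 going from 463 ± 55 to 79.2 ± 7.5 CPM (-2.55 ± 0.13). Opsins did not all follow. The ultraviolet opsin gene opn1sw1 fell from 1861, 1645 and 2261 CPM to 329, 552 and 539 CPM (-2.02 ± 0.20), and the green opsin gene opn1mw2 rose from 8.17, 4.34 and 9.45 CPM to 84.3, 79.2 and 95 CPM (3.58 ± 0.22). Green opsin genes form a cluster of close copies, so reads can be split between them. Of 51 lens genes 44 fell and 1 rose (median -1.48), and the named gamma-M crystallins crygm2d3, crygm2d4, crygm2d10, crygm2d12, crygm2d17 and crygm2d20 changed by -1.47 to -1.64. They too are near-identical copies. Among 30 glial and myelin genes 10 fell and 3 rose (median -0.21). The radial glia gene gfap changed by -0.92 ± 0.15 and the brain lipid-binding gene fabp7a by 1.01 ± 0.11.

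**Figure D3:**
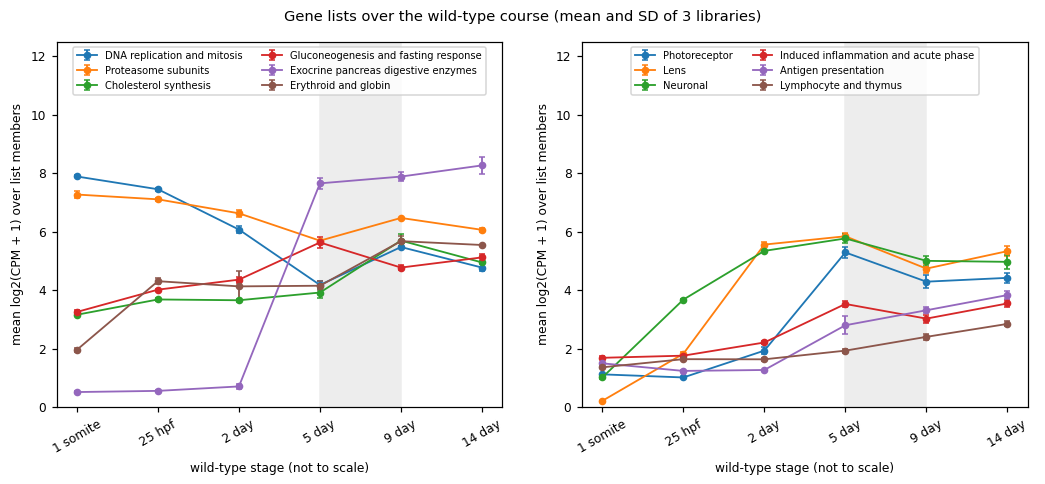
Mean log2(CPM + 1) over the members of 12 gene lists in wild type from 1 somite to 14 day, scaled over all 36 libraries, with error bars for the SD of 3 libraries. The grey band marks the step from 5 to 9 day: cholesterol synthesis went from 3.92 to 5.70, DNA replication from 4.18 to 5.47 and lens from 5.84 to 4.74.

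Seen over the wild-type stages, several of these lists turned at 5 day. The mean log2(CPM + 1) of DNA replication genes was 7.89 at 1 somite, 6.07 at 2 day, 4.18 at 5 day, 5.47 at 9 day and 4.77 at 14 day. The fasting list went from 4.36 at 2 day to 5.63 at 5 day, 4.77 at 9 day and 5.12 at 14 day. Cholesterol synthesis lay between 3.16 and 3.92 at the stages up to 5 day, then at 5.70 and 4.95. Pancreatic enzymes had already risen before the step, from 0.70 at 2 day to 7.65 at 5 day, and stood at 7.89 at 9 day. These are means over members on one scale, with no test between stages other than 5 and 9 day.

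Skin genes changed in both directions. Of 63 genes of epidermis and ionocytes 19 rose and 21 fell (median -0.05). The annexin gene anxa1c went from 27.2 ± 9.0 to 377 ± 126 CPM (3.79 ± 0.29), and the keratin gene krt5 from 2174 ± 202 to 4308 ± 577 CPM (0.99 ± 0.13). Ionocytes, the skin cells that take up salts before the gills do, lost RNA share of several markers. Their regulator foxi3a fell by 1.45 ± 0.16 on the log2 scale, the sodium pump gene atp1a1a.4 went from 502 ± 25 to 166 ± 19 CPM (-1.59 ± 0.11) and the ammonia channel gene rhcgb from 65.1 ± 4.1 to 21.6 ± 2.2 CPM (-1.59 ± 0.12). Of the same gene family as rhcgb, rhcg2a rose by 1.17 ± 0.23. The list was not divided by cell type, so no count is given for ionocytes alone. Among 35 pigment genes 11 fell and 6 rose (median -0.24). The melanosome gene pmela changed by -0.82 ± 0.13 and the pteridine gene gch2 by 1.52 ± 0.17.

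Clock genes moved in both directions too. Of 42 tested, 20 fell and 7 rose (median -0.33). The cryptochrome gene cry1ba read 381, 422 and 414 CPM at 5 day and 58.2, 62.9 and 75.6 CPM at 9 day (-2.63 ± 0.12, edgeR adjusted p = 1.77e-06). The repressor gene nr1d4b fell by 2.67 ± 0.22 on the log2 scale. The period gene per1b rose from 52.9 ± 9.9 to 168 ± 3.5 CPM (1.67 ± 0.13). These genes cycle over the day, and the hour of collection of each group is not given, so age and hour cannot be told apart for them. The limit also holds for any gene of the fasting, glucocorticoid, cholesterol and bile acid lists that varies over the day. Whether those genes do was not tested.

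Inflammation genes were more often lower than higher at 9 day. Of 38 genes of induced inflammation and the acute phase 16 fell and 4 rose (median -0.48). The gene irg1, for the itaconate-making enzyme of activated macrophages, read 29.0, 22.6 and 20.6 CPM at 5 day and 2.58, 1.54 and 1.41 CPM at 9 day (-3.70 ± 0.24, edgeR adjusted p = 3.92e-06). The matrix metalloproteinase gene mmp9 went from 31.6 ± 3.9 to 8.54 ± 1.4 CPM (-1.89 ± 0.16), mmp13a changed by -2.66 ± 0.30 and the cytokine gene il1b by -1.96 ± 0.30. The haptoglobin gene hp was among the 4 that rose (0.74 ± 0.10). The iron hormone gene hamp did not pass: its libraries read 36.2, 16.1 and 36.6 CPM at 5 day and 22.3, 5.94 and 1.73 CPM at 9 day, and the groups overlap (-1.56 ± 0.61, edgeR adjusted p = 0.0528). The serum amyloid gene saa was below the filter, with 41.9 estimated counts over the 6 libraries.

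Neutrophil and macrophage markers gave no single direction. Of 40 tested, 11 fell and 7 rose (median -0.27), shares of 27.5% and 17.5%. The neutrophil peroxidase gene mpx fell from 91.9, 62.2 and 68.7 CPM to 33.7, 21.3 and 30.2 CPM (-1.39 ± 0.19, edgeR adjusted p = 0.000187). The perforin-like macrophage gene mpeg1.2 fell from 124 ± 32 to 25.8 ± 6.9 CPM (-2.26 ± 0.22), the receptor genes csf3r and csf1ra by 1.51 ± 0.20 and 1.36 ± 0.17 on the log2 scale. The neutrophil marker lyz, unlike mpx, did not pass, at 67.8 ± 28 and 57.1 ± 4.4 CPM (edgeR adjusted p = 0.394). Nor did the macrophage marker mpeg1.1, at 21.9 ± 6.4 and 20.0 ± 3.4 CPM (edgeR adjusted p = 0.621). The leukotriene enzyme gene alox5a rose by 1.16 ± 0.16. Among 35 complement genes 13 fell and 3 rose (median -0.30). The C3 gene c3a.1 went from 569 ± 103 to 232 ± 29 CPM (-1.29 ± 0.15) and the factor B gene cfb from 161 ± 24 to 77.6 ± 6.7 CPM (-1.05 ± 0.13).

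Among 33 interferon-response genes 9 were higher and 8 lower at 9 day, shares close to those of all genes. The antiviral Mx genes mxc and mxf fell, by 2.31 ± 0.25 and 3.69 ± 0.36 on the log2 scale, with mxf at 49.9, 37.9 and 19.4 CPM at 5 day and 3.87, 2.35 and 2.06 CPM at 9 day. Their paralog mxa and the ubiquitin-like gene isg15 overlapped between ages and did not pass (edgeR adjusted p = 0.734 and 0.241). The interferon regulatory factor gene irf1a rose from 2.29 ± 1.1 to 20.9 ± 6.5 CPM (3.18 ± 0.33).

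Genes of adaptive immunity were higher at 9 day or did not pass, with few exceptions. Of 21 genes of antigen presentation 10 rose and 2 fell (median 0.79). The invariant chain gene cd74a of MHC class II loading went from 2.14 ± 0.73 to 11.7 ± 1.9 CPM (2.45 ± 0.26, edgeR adjusted p = 3.99e-05). The proteasome activator genes psme1 and psme2, which interferon induces, rose by 1.12 ± 0.20 and 1.26 ± 0.21. The class I light chain gene b2m rose by 1.00 ± 0.33 with overlapping groups, and that call was lost in DESeq2 and without any of 5 day replicate 2, 5 day replicate 3 or 9 day replicate 1 (adjusted p = 0.111, 0.0895, 0.0670 and 0.0998). Of 23 genes of lymphocytes and the thymus 11 rose and none fell (median 0.60). The recombinase gene rag1, active in developing T and B cells, went from 6.01, 3.88 and 9.00 CPM to 15.8, 18.5 and 10.9 CPM (1.28 ± 0.29, edgeR adjusted p = 0.00376). The thymus homing receptor gene ccr9a rose by 1.38 ± 0.30, the T cell factor gene tcf7 by 1.39 ± 0.25 and the T cell kinase gene zap70 from 0.291 ± 0.27 to 1.83 ± 0.29 CPM (2.66 ± 0.55). The NK-lysin gene nkl.3 had 3 counts at 5 day and 57 at 9 day, a ratio of 14.5 (95% counting interval 4.73 to 72.6). One of the 11, cd3eap, takes its symbol from a T cell protein but encodes a subunit of RNA polymerase I.

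Of 18 genes of mucosal defence 8 rose, 2 fell and 8 did not pass (median 0.23). The mucin maturation gene agr2 read 61.4, 46.9 and 52.1 CPM at 5 day and 308, 179.5 and 256 CPM at 9 day (2.22 ± 0.19, edgeR adjusted p = 1.35e-05). The gel-forming mucin genes muc5.1 and muc5.2 rose by 1.28 ± 0.16 and 1.81 ± 0.22, and the peptidoglycan recognition gene pglyrp6 by 2.16 ± 0.31. The intelectin gene intl2, which encodes a lectin that binds microbial sugars, went from 7 counts over the 5 day libraries to 648 over the 9 day libraries (6.09 ± 0.49), and the chloride channel regulator gene clca1 from 1.90 ± 1.4 to 33.0 ± 13 CPM (4.20 ± 0.48). Scaled over all 36 libraries, intl2 had a mean of 20.2 CPM at 9 day and 1.47 CPM at 14 day.

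The kctd15 mutants passed through the same ages, and share no library with the wild-type step. Of 21809 genes tested in them 12532 were called (57.5%), 28.5% higher and 29% lower. Of 10753 genes called in wild type and tested in mutants, 8768 were called in the same direction and 109 in the opposite one. Across the 21509 genes tested in both, the log2 changes correlated at 0.811, as a description over genes, which are not independent replicates. The difference between the steps was called for 530 of 22998 genes (2.3%), with the log2 change more positive in mutants for 367 and more negative for 163. These are signs of the difference, so a deeper fall in mutants counts among the 163. Scaling by library size gave 726 and 92. The count was 842 without wild-type 5 day replicate 3. It was 325 without wild-type 5 day replicate 1, 316 without wild-type 9 day replicate 2, 338, 295 and 346 without mutant 5 day replicate 1, 2 and 3, and 330 without mutant 9 day replicate 1.

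**Figure D4:**
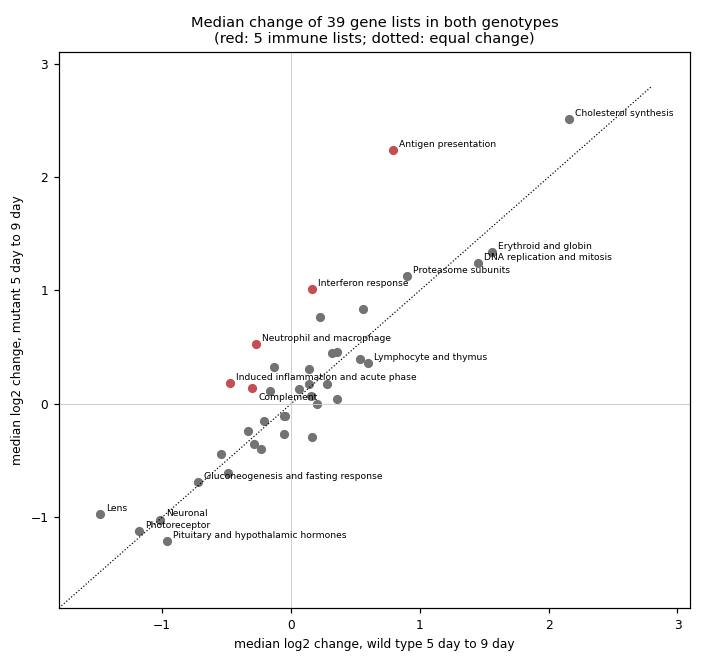
Median log2 change of each of 39 gene lists from 5 to 9 day in wild type (horizontal axis) and in kctd15 mutants (vertical axis), with a dotted line at equal change. Many lists lie near the line, such as cholesterol synthesis at 2.16 and 2.51, lens lies at -1.48 and -0.97, and the 5 immune lists drawn in red lie above it, such as antigen presentation at 0.79 and 2.24. Mutant medians leave out members not tested in mutants.

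Medians are given side by side for 6 lists whose medians had the same sign in both genotypes. Mutant medians, here and below, are over the members tested in wild type that were also tested in mutants. They were 2.16 in wild type and 2.51 in mutants for cholesterol synthesis, -0.72 and -0.69 for the fasting response, 1.45 and 1.24 for DNA replication, 1.56 and 1.34 for red cells, -1.02 and -1.02 for neurons and -1.18 and -1.12 for photoreceptors. No gene of the red cell, DNA replication, neuronal or fatty acid synthesis lists was called for a difference between the steps in edgeR. With 28, 39, 53 and 34 genes tested and 2.3% of all genes called, a count of 0 is near the background and does not show that the steps were alike. At an unadjusted p under 0.05 these lists held 7, 7, 5 and 7 genes, against 3439 of all 22998, and DESeq2 called 1, 1, 1 and 0. Of the 28 cholesterol genes 3 were called, all with a larger rise in mutants, such as hmgcra (4.4 ± 0.16 in mutants and 3.04 ± 0.20 in wild type). With the 12 libraries scaled together hmgcra was 25.9 to 42.95 CPM in wild type and 9.64 to 16.7 CPM in mutants at 5 day. At 9 day the genotypes overlapped, at 239.7 to 348.7 and 259.8 to 305.7 CPM. Other lists matched less well. Of 31 pancreatic enzyme genes 10 rose and 2 fell in wild type, and 4 rose and 14 fell in mutants (medians 0.17 and -0.30). Of 73 ribosomal protein genes 47 rose in wild type and none was called in mutants (0.36 and 0.04). Bile acid genes had medians of -0.13 and 0.32. A difference between the steps was called for 2, 0 and 0 genes of these lists. At an unadjusted p under 0.05 in edgeR the ribosomal protein and bile acid lists held 22 and 3 genes, and DESeq2 called 0 and 1. Their counts of 0 do not show that the steps were alike.

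Calls of a difference between the steps were frequent in the immune lists, but not only there. Of 42 clock genes 9 were called, of 17 glucocorticoid genes 3 and of 18 mucosal defence genes 3. Of 63 epidermis and ionocyte genes 9 were called, and of 49 fast muscle genes 5. In these other lists the change was more positive in mutants for 5, 2, 2, 1 and 0 of the genes called. Members of the inflammation list called for a difference between the steps numbered 9 of 38, of the neutrophil and macrophage list 14 of 40, of the complement list 7 of 35, of the interferon list 5 of 33 and of antigen presentation 7 of 21, against 2.3% of all genes. In every one of these genes the log2 change was more positive in mutants, which is a statement about the step and not about the level at either age. Without mutant 9 day replicate 3 the inflammation list held 1 gene called with a more negative change in mutants beside 9 with a more positive one. With any 1 of the 12 libraries left out these counts ran from 8 to 12, 9 to 18, 6 to 8, 4 to 10 and 5 to 12. In the inflammation list 16 genes fell and 4 rose in wild type, and 4 fell and 13 rose among the 33 tested in mutants. Median changes were -0.48 and 0.18 for inflammation, -0.27 and 0.53 for neutrophils and macrophages, and 0.79 and 2.24 for antigen presentation. The mutant medians cover only the 33 of 38, 38 of 40 and 18 of 21 members tested in mutants, so the paired sets differ. None of 23 lymphocyte and thymus genes was called in edgeR (4 at an unadjusted p under 0.05) or in DESeq2. Beside 2.3% of all genes this count is near the background and does not show that the steps were alike. In wild type 11 of these genes rose and none fell, and in mutants 5 rose and 4 fell among 21 tested. Of all genes tested 25.4% rose and 23.9% fell in wild type, and 28.5% and 29% in mutants. The medians of the lymphocyte and thymus list were 0.60 and 0.36.

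Levels in the 12 libraries show which group stood apart, gene by gene. The naming rule favoured genes with strong changes in the wild-type step or the genotype difference, so these genes do not stand for whole lists. With the 12 scaled together, irg1 was 19.4 to 27.3 CPM in wild type at 5 day, 1.37 to 2.49 in wild type at 9 day, 0.415 to 1.1 in mutants at 5 day and 1.19 to 2.3 in mutants at 9 day. The wild-type 5 day libraries alone were high. The same held for mmp9, at 26.1 to 33.2 CPM in the wild-type 5 day libraries and 6.2 to 11 CPM in the other 9, and for mpeg1.2, at 92.0 to 151 and 7.42 to 31.5 CPM. For mpx the wild-type 5 day libraries read 58.7 to 86.5 CPM and the other 9 read 20.5 to 32.5 CPM. For c3a.1 they read 451 to 644 CPM against 177 to 262 CPM. For mpeg1.1 the mutant 5 day libraries stood apart instead, at 7.11 to 8.27 CPM against 13 to 27.1 CPM in the other 9. In the antigen presentation list, psme1 was 5.25 to 7.36 CPM in mutants at 5 day, 18.4 to 30.9 CPM in wild type at 5 day, and 36 to 62 CPM in both genotypes at 9 day. The genotypes did not meet in this way for cd74a, at 1.42 to 2.76 CPM in wild type and 0.927 to 1.38 CPM in mutants at 5 day, and 9.34 to 12.9 and 5.11 to 5.45 CPM at 9 day. The labels give no batch or hour. A batch or hour particular to the wild-type 5 day group, or to the mutant 5 day group, therefore cannot be told apart from genotype and age.

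**Figure D5:**
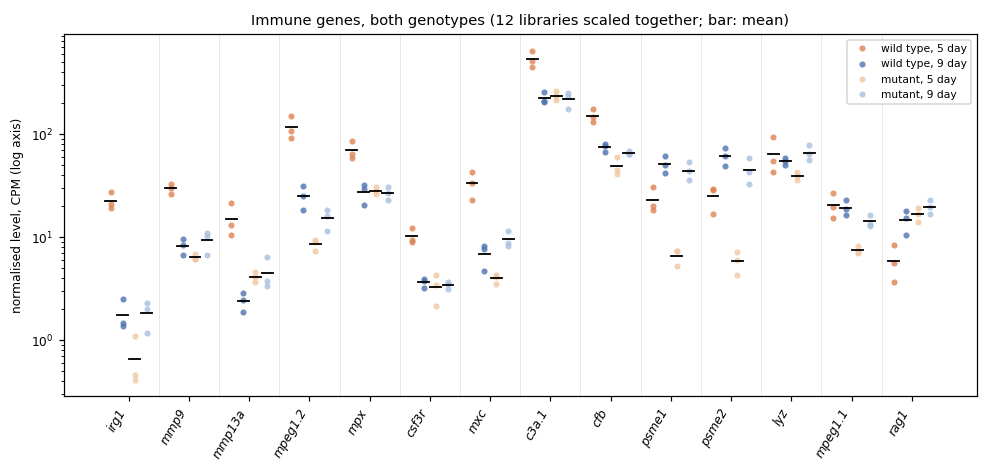
Normalised level in CPM (log axis) of 14 immune genes in the 3 libraries of each of 4 groups, wild type and kctd15 mutant at 5 and 9 day, scaled over these 12 libraries, with a bar at each mean. For irg1, mmp9, mpx, mpeg1.2 and csf3r the wild-type 5 day libraries lie above the other 9, whereas lyz overlaps between groups of both ages in wild type. For mpeg1.1 the mutant 5 day libraries lie below the other 9.

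Over the wild-type stages irg1 was high at 5 day only: scaled over all 36 libraries its mean was 0.718 CPM at 2 day, 21.6 at 5 day, 1.61 at 9 day and 1.1 at 14 day. By contrast mmp9 went from 28.5 CPM at 5 day to 7.48 at 9 day and back to 26.2 at 14 day. The inflammation list as a whole had a mean log2(CPM + 1) of 2.21 at 2 day, 3.52 at 5 day, 3.02 at 9 day and 3.54 at 14 day in wild type, and of 2.76 and 3.02 at 5 and 9 day in mutants.

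Genes of other tissues were also called for a difference between the steps. The gene eevs, for an enzyme of gadusol synthesis, a sunscreen compound of fish, rose by 0.68 ± 0.18 in wild type and 4.27 ± 0.14 in mutants. With the 12 libraries scaled together it was 61.2 to 110.6 CPM in wild type and 8.96 to 10.8 CPM in mutants at 5 day. At 9 day it was 125 to 160 and 169 to 219 CPM. The keratin gene krtt1c19e rose by 0.98 ± 0.14 in wild type and changed by -0.78 ± 0.11 in mutants. On the same scale krtt1c19e was 759 to 973 CPM in wild type and 2627 to 3117 CPM in mutants at 5 day, and 1653 to 2054 and 1583 to 1763 CPM at 9 day. The monocarboxylate transporter gene slc16a3 changed by -0.77 ± 0.13 and 0.86 ± 0.12. The haem-binding family gene soul5 fell in wild type from 380.3 ± 53 to 106 ± 8.9 CPM (-1.85 ± 0.13) and changed by -0.09 ± 0.12 in mutants. The stress gene fkbp5 changed by -1.79 ± 0.31 and 1.88 ± 0.43, and per1b by 1.67 ± 0.13 and 0.33 ± 0.10. For fkbp5 the mutant ages overlapped, at 16.4 to 42.8 CPM at 5 day and 40.3 to 170.6 CPM at 9 day with the 12 libraries scaled together. The paralogs kctd15a and kctd15b did not pass in the wild-type step, at 19.8 ± 6.0 and 16.7 ± 1.7 CPM for kctd15a (edgeR adjusted p = 0.350) and 7.02 ± 0.59 and 7.80 ± 0.76 CPM for kctd15b (edgeR adjusted p = 0.505). Both stood higher in the mutant libraries. With the 12 scaled together, kctd15a was 14.95 to 25.2 CPM in wild type and 69.4 to 82.5 CPM in mutants at 5 day, and 14.3 to 17.4 and 58.8 to 66.1 CPM at 9 day. For kctd15b the ranges were 6.09 to 7.23 and 10.16 to 13.1 CPM at 5 day, and 6.72 to 7.99 and 13 to 17.5 CPM at 9 day. The genotypes did not overlap at either age for either gene. No test was made within an age, and a difference between the steps was not called for either (edgeR adjusted p = 0.952 and 0.701).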

How the data were processed

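Per the submitters' processing notes, the authors used Trimmomatic 0.36, kallisto 0.43.0 and edgeR, with build GRCz10. The authors deposited a table of estimated counts (expected counts) per gene symbol without normalization, rounded to whole numbers here. The table holds 15 symbols that read as dates, which were matched to no gene. The 2 other deposited tables were not used here.

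The libraries of 5 and 9 day were fitted alone per genotype, and all 12 together for the difference between the steps, with edgeR 4.0.16 in R 4.3.3 (filterByExpr, TMM, glmQLFit, glmQLFTest, Benjamini-Hochberg adjustment, threshold 0.05). DESeq2 1.42.0 was an alternative. The code was tested on simulated counts.

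The comparison, the 39 gene lists and the naming rule were chosen with earlier results of these data known. The rule took the 15 largest rises and 15 largest falls at 10 CPM or more with no overlap, the 8 most abundant called genes per direction, up to 6 called genes per list, 8 genes of the genotype difference and a fixed set of single genes. Genes with clone or locus names were left out. Lists were matched by symbol or by synonym in the RefSeq gene table of assembly GRCz12tu, 1498 of 1598 entries in all, and one gene can sit in several lists. Deviations of same-numbered libraries from their group means correlated at 0.122, -0.144 and 0.00767. Libraries of different numbers were not compared in this way, so these values cannot show whether the numbers pair the libraries. The main fits did not use the numbers. No sequences are printed, and some results are not reported here.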

Additional observations from a re-analysis of the deposited data

Results flagged for a closer look

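The genes below changed by different amounts between 5 and 9 day in wild type and mutants, by edgeR's test of the difference itself, and are set apart for that reason. Each value is the mutant change minus the wild-type change on the log2 scale, so that a positive value means a larger rise or a smaller fall in mutants. All had an edgeR adjusted p under the threshold over 22998 genes.

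Among immune genes the difference was 5.11 for irg1, 2.39 for mmp9, 2.72 for mmp13a, 3.04 for mpeg1.2, 1.26 for mpx and 1.49 for csf3r. It was 3.51 for mxc, 6.5 for mxf, 1.15 for c3a.1, 1.44 for cfb, 1.56 for psme1 and 1.63 for psme2. Mutant libraries held close to no mxf counts at 5 day, so that fitted value depends on the prior count and is no bound.

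Among genes of metabolism, gut and stress it was 1.34 for hmgcra, 0.94 for alpi.2, -1.34 for haao, 3.66 for fkbp5 and -0.95 for muc5.1. Among clock genes it was -1.36 for per1b and 2.73 for nr1d4b. With the 12 libraries scaled together, per1b had a mean of 49.95 CPM in wild type at 5 day. It had 162.8 CPM in wild type at 9 day, and 132.2 and 167.9 CPM in mutants at 5 and 9 day. In the same order nr1d4b had 12.36, 1.98, 1.67 and 1.71 CPM. The hour of collection of each group is not given, so genotype and hour cannot be told apart for them. Among genes of muscle, skeleton, skin and pigment it was -1.45 for acta1b, 1.6 for matn3a, -0.92 for krt5, -1.77 for krtt1c19e, 0.72 for rhcgb and -0.84 for gch2. Outside the lists it was 3.58 for eevs, 1.61 for slc16a3 and 1.73 for soul5.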

How the results depend on the processing

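In the wild type 5 day to 9 day comparison, 9593 to 11877 genes were called over all alternatives, against 11019. Of 264 named genes called, 256 kept the call and direction in every alternative, and none reversed. The exceptions were apoa1b, mylz3, tpma, b2m, hsp90ab1, hspa8, slc25a5 and fabp10a. With the replicate block the count was 10466, and 12131 and 408 for the mutant step and the genotype difference. In that fit mylz3 lost its call. The genotype difference, 530 genes, gave 818 with library size only and 809 in DESeq2, and 295 to 842 with a library left out, the cause not being tested. Uncalled genes changed sign with a library left out: lyz ran from -0.46 to 0.13, mpeg1.1 from -0.30 to 0.11, kctd15a from -0.36 to 0.037, and mxa from -0.24 (-0.09 without another library) to 0.58. Medians near 0 changed sign under at least 1 alternative for the lipoprotein, intestine, growth axis, epidermis and interferon lists. With library size only, the medians of 24 of the 39 lists moved by at least the SD of the list's mean level between replicates. With a wild-type library left out, 5 to 10 medians moved by as much. Depth limits genes of a few counts, such as vtg1 and saa.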
